A study of Mus musculus with 24 samples.

Results

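Of 24 mammary tumours profiled by bulk RNA sequencing, 16 were placed in a fast or a slow class by the level of Mki67, the gene of the proliferation antigen Ki-67. The members were chosen by these measured values alone, as CPM, the raw count relative to the library's total. Among the 12 tumours labelled KO the 4 with the highest Mki67 CPM were fast and the 4 with the lowest were slow, and the same was done among the 12 labelled WT. This gave 8 fast and 8 slow tumours, and the 8 tumours between them were left in a middle class. The words fast and slow name this ordering of a transcript in RNA from whole tumours, and no rate of division was measured.

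All tumours came from the MMTV-PyMT mouse, in which the mouse mammary tumour virus promoter drives the polyomavirus middle T oncogene in mammary epithelium. They were collected at a volume of 2000 mm3. KO and WT refer to Nr0b2, also called SHP, an orphan nuclear receptor: the tumours labelled KO came from Nr0b2-/- mice carrying the oncogene and those labelled WT from Nr0b2+/+ mice carrying it, with no other treatment named. The labels give neither age nor the number of animals, so the p-values below measure the spread between tumours. Reads of Nr0b2 did not follow the labels in the plain sense. All 12 libraries labelled KO held between 3 and 71 of its reads, while 11 of the 12 labelled WT held none. Levels were low, at 3.78 CPM in KO 12 and at most 1.05 CPM in any other library. Where in the gene these reads lie was not examined, and whether the labels are right was not tested. Groups are called by their labels throughout. Library totals ran from 18789250 to 38022182 counted reads. The mean total was 2.78e+07 ± 4.76e+06 (SD, n = 8) in the fast class and 2.48e+07 ± 4.26e+06 (n = 8) in the slow class, and an exact two-sided permutation test within labels gave p = 0.171 (adjusted over 4 library measures, 0.341).

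Ki-67 is a large protein that coats chromosomes in mitosis and is present in dividing cells but not in resting ones, which is why its level is read as a sign of proliferation. Genes of the cell cycle are switched on in waves. The E2F factors turn on genes for DNA replication before S phase, and the MMB complex with FOXM1 turns on genes for mitosis in G2. In resting cells the DREAM complex holds such genes off. The cell cycle genes homology region (CHR, TTTGAA) and CCAAT boxes are common promoter elements of mitotic genes. In a whole tumour such transcripts come from all dividing cells, whether cancer, stromal or immune cells. Fewer cells of a type and less RNA per cell cannot be told apart in bulk RNA.

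The 250 bases before the RefSeq start of 4 genes are shown because the first chose the classes, the second is its partner marker, and the other 2 rose with it. Those 2 were picked by hand from the 11 genes called higher, so the windows do not stand for the rest. Capitals mark matches to the CHR letters TTTGAA or to CCAAT on either strand, and positions count back from the start. Mki67 lies at chr7:135716380-135716629 (minus strand, GRCm38.p6), Top2a at chr11:99024190-99024439 (minus strand), Smc2 at chr4:52438971-52439220 (plus strand) and Kntc1 at chr5:123749476-123749725 (plus strand).
Mki67: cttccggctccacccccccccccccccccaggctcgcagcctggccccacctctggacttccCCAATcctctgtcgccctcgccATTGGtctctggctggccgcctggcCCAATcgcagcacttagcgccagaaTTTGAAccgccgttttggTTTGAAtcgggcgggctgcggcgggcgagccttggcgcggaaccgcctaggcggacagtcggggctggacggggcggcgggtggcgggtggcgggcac
Top2a: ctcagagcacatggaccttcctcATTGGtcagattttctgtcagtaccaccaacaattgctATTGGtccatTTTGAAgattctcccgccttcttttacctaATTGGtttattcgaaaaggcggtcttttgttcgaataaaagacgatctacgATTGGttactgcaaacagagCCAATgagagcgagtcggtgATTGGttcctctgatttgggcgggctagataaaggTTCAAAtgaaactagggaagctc
Smc2: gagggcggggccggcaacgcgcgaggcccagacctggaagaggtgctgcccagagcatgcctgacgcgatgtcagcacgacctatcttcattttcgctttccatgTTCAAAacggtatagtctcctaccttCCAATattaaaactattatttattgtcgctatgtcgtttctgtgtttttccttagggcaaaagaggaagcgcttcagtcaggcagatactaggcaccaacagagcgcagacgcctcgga
Kntc1: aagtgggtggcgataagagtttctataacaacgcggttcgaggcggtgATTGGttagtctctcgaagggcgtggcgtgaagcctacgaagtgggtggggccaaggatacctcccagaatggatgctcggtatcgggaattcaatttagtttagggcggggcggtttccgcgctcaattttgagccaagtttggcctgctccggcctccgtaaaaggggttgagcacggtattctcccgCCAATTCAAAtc

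The Mki67 window held 2 CHR matches, whose first bases lie at -116 and -98, and 3 CCAAT matches. The Top2a window held 2 CHR and 6 CCAAT matches, the Smc2 window 1 of each, and the Kntc1 window 1 CHR match that overlaps 1 of its 2 CCAAT matches. Over a list of 50 mitosis and G2 genes, 41 had a promoter in the RefSeq table, in 43 windows. Both motifs stood in 13 of those windows (30.2%), against 1823 of all 32851 promoter windows of the same length (5.55%). Counted with or without the other motif, the CHR letters stood in 32.6% and 15.99% of these, and CCAAT in 69.8% and 33.8%. For 50 genes of DNA replication and S phase, 40 of which matched in 49 windows, the E2F letters TTCCCGC stood in 26.5% of windows, against 3.82% of all and 0 of 43 mitosis windows. A match is a run of letters and no evidence that a factor binds there.

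By construction the fast tumours had more Mki67 (chromosome 7, 135291513 to 135318286, minus strand, GRCm39). The fast class ran from 373 to 612 CPM with a median of 437, the middle class from 246 to 371 with a median of 335, and the slow class from 127 to 291 with a median of 230. The classes meet closely at some borders. Among libraries labelled KO, the lowest fast tumour held 373 CPM and the highest middle one 358, while the lowest middle tumour held 246 and the highest slow one 242. Among those labelled WT the same pairs were 402 and 371, and 315 and 291. The slow class was tight under the KO label, at 230 ± 10.3 CPM (SD, n = 4), and wide under the WT label, at 221 ± 70.5 CPM (n = 4). Mki67 did not pass the test between labels, with a log2 difference of -0.07 ± 0.19 (SE) for KO minus WT (edgeR quasi-likelihood test, Benjamini-Hochberg adjusted p = 0.848, 50 of 15820 genes called, 0.316%).

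Top2a encodes topoisomerase II alpha, which untangles sister chromosomes before they part. Fast tumours held 214 to 416 CPM with a median of 252, and slow tumours 85.1 to 174 with a median of 139. The classes did not overlap. The log2 change was 0.93 ± 0.18 (SE), and the adjusted p was 0.0731 in edgeR's quasi-likelihood test, which misses the threshold of 0.05. Without KO 12, which had the highest Top2a level of the slow tumours, the log2 change was 1.03 ± 0.16 and the adjusted p 0.0127.

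**Figure D1:**
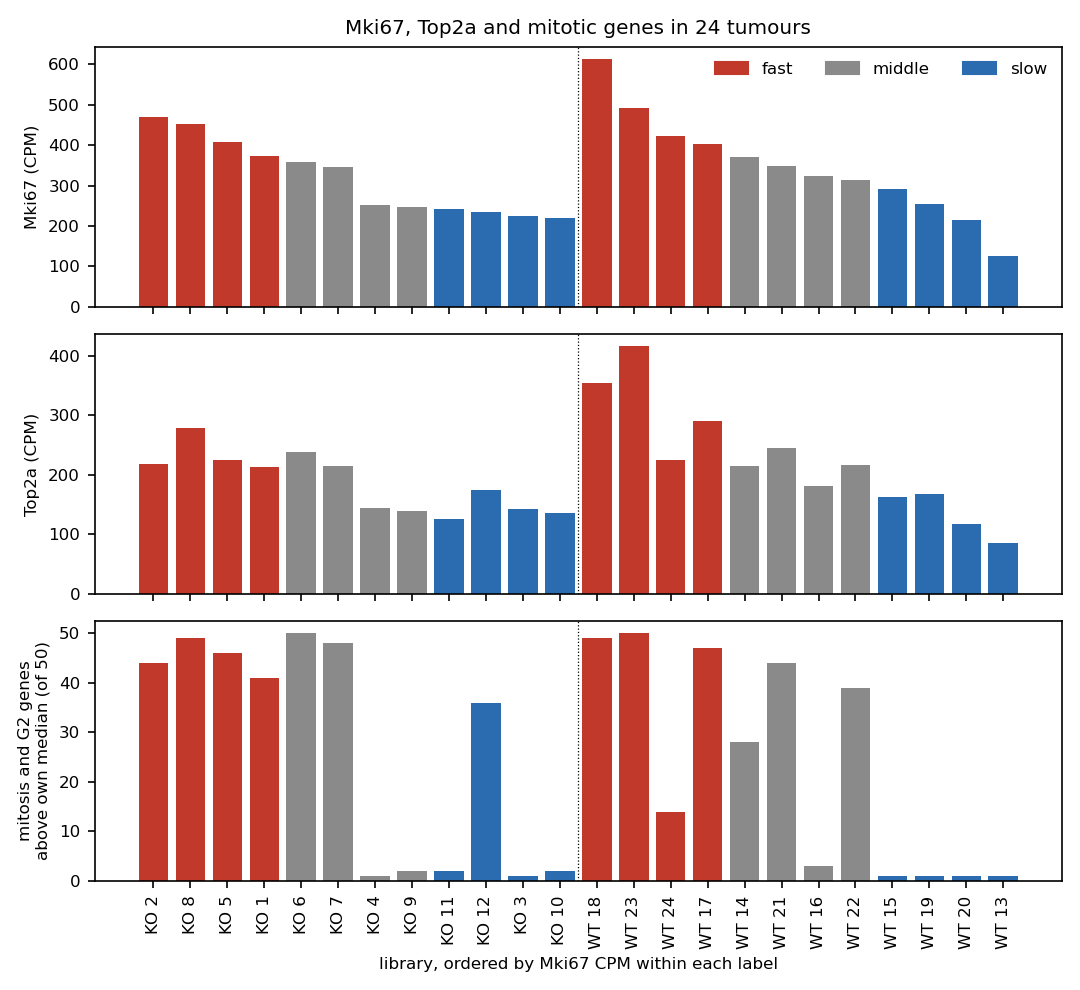
Mki67 CPM (top), Top2a CPM (middle) and the number of 50 mitosis and G2 genes above their own 24-library median (bottom) in each tumour, 1 bar per library, coloured by class. KO 12 was slow by Mki67 yet had 36 of 50 mitotic genes above the median, while the other 7 slow tumours had 1 or 2, and the fast tumour WT 24 had 14.

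KO 12 stood apart. Its deviation from the mean profile fell with the exonic length of the gene, with a Spearman coefficient of -0.45 across genes, against -0.15 to 0.27 in the other 23 libraries. Mki67 has a long transcript model of 10257 exonic bases. KO 12 ranked 10 of the 12 libraries labelled KO by Mki67 CPM, 7 by log2 CPM after TMM scaling, and 2 once the library's trend with length was removed. It held the most Cdk1 of the slow class, 153 CPM, with the next at 63.9. KO 12 also held 42 of 50 DNA replication and S phase genes above their medians, where the slow median was 4.5 genes. Its Ube2c level, 181 CPM, was above all fast tumours, whose highest was 110. KO 11 stood apart in another way, with the highest Acta1 of the slow class (1574 CPM, the next 347) and the highest Cd3e (8.64 CPM). Results are therefore given with KO 12 and without it, and without both where leaving out KO 11 too ends calls or moves a value. Both libraries were singled out after their values were seen. Counts and p-values without them describe the data and are no independent support.

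Across all genes, the fit of fast against slow with the label as a block called 12 of 16557 genes (0.0725%) at an adjusted p under 0.05, 11 higher (0.0664%) and 1 lower (0.00604%) in fast tumours. Mki67 was left out of the tests because it chose the classes. The same RNA gave the classes and the other genes, so a p-value here measures association with the Mki67 ordering. Of the 11 higher genes, 4 belong to a list of mitosis and G2 genes, 1 to a list of DNA replication genes and 1 to a list of recombination genes. The 1 lower gene, Fcer1g, belongs to myeloid, mast and natural killer cells. Classes were separate within both labels for 142 genes higher in fast tumours (0.858%) and 6 lower (0.0362%).

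The calls depended on single libraries. Leaving out KO 12 gave 1020 of 16821 genes (6.06%), 615 higher (3.66%) and 405 lower (2.41%), among them all 12 first called. Leaving out WT 24 gave 27, and each of the other 14 libraries left out in turn gave 0. Without KO 11 and KO 12 together there were 508 calls (3%), 378 higher (2.23%) and 130 lower (0.768%), again with all 12. With the length trend removed from every library, 0 genes were called over 16 libraries and 1065 without KO 12. At an unadjusted p under 0.05 the 16 libraries gave 1102 genes higher (6.66%) and 1371 lower (8.28%).

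Among the called genes, Smc2 encodes a subunit shared by both condensins, which compact chromosomes. Fast tumours held 75.8 to 122 CPM with a median of 95.7, and slow tumours 41.3 to 67.5 with a median of 60.1. The classes did not overlap, and Smc2 rose by 0.76 ± 0.12 on the log2 scale (SE, adjusted p = 0.0352, edgeR quasi-likelihood test) and by 0.72 ± 0.12 without KO 12. Ncapd3, a subunit of condensin II, rose by 0.50 ± 0.08 (adjusted p = 0.0352). Its classes overlapped only across labels, since the fast tumour KO 2 held 31.2 CPM and the slow tumour WT 15 held 31.4.

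At the kinetochore, Knl1 is the scaffold that recruits spindle checkpoint proteins. It ranged from 29.9 to 62.8 CPM in fast tumours (median 36.0) and from 13.2 to 27.6 in slow ones (median 19.1), with no overlap, and rose by 1.03 ± 0.16 (adjusted p = 0.0352, edgeR). Kntc1, part of the complex that brings dynein to kinetochores, rose by 0.94 ± 0.16 (adjusted p = 0.0385). Fast tumours held 19.4 to 37.0 CPM of Kntc1 and slow tumours 8.46 to 17.9. Cenpf, a large kinetochore protein, came next below the threshold, at 0.96 ± 0.17 (adjusted p = 0.0567), with 55.9 to 118 CPM against 23.9 to 52.5 and no overlap.

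Kif20a and Kif20b are kinesins of the central spindle and cytokinesis. Kif20a ran from 12.4 to 25.6 CPM in fast tumours and from 6.28 to 11.2 in slow ones, and Kif20b from 31.1 to 65.0 and from 16.1 to 26.1. Neither overlapped, and they rose by 0.99 ± 0.16 and 0.92 ± 0.15 (adjusted p = 0.0352 for both, edgeR). Cep295, needed for a new centriole to become a centrosome, rose by 0.54 ± 0.09 (adjusted p = 0.0466). Its lowest fast tumour, KO 5 at 28.0 CPM, lay just under the highest slow one, WT 15 at 28.7.

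In replication and repair, Dnmt1, which copies DNA methylation onto the new strand, held 152 to 234 CPM in fast tumours and 107 to 142 in slow ones. The classes did not overlap, and Dnmt1 rose by 0.49 ± 0.08 (adjusted p = 0.0352, edgeR). Topbp1, which activates the ATR checkpoint kinase at stalled forks, ran from 74.2 to 116 CPM against 48.0 to 69.2 and rose by 0.63 ± 0.10 (adjusted p = 0.0352). Brca1, of homologous recombination, rose by 0.91 ± 0.15 (adjusted p = 0.0352). For Brca1 the fast tumour KO 2, at 21.5 CPM, lay under the slow tumour WT 19, at 24.1, while within each label the classes were apart. Atad5, which unloads the PCNA clamp, had a log2 change of 0.63 ± 0.12 and missed the threshold (adjusted p = 0.0571), as did Supt16, a subunit of the histone chaperone FACT, at 0.46 ± 0.09 (adjusted p = 0.0571).

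Adcy1, an adenylyl cyclase that makes cyclic AMP, had the largest change of the called genes. It was a low transcript, at 0.467 to 5.36 CPM in fast tumours (median 1.36) and 0.106 to 1.10 in slow ones (median 0.321). It rose by 2.32 ± 0.41 (adjusted p = 0.0466, edgeR). The highest slow tumour, WT 19, exceeded some fast tumours labelled KO, though within each label the classes were apart. Fgd1, an exchange factor for the GTPase Cdc42, changed by 0.95 ± 0.18 and missed the threshold (adjusted p = 0.0571).

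**Figure D2:**
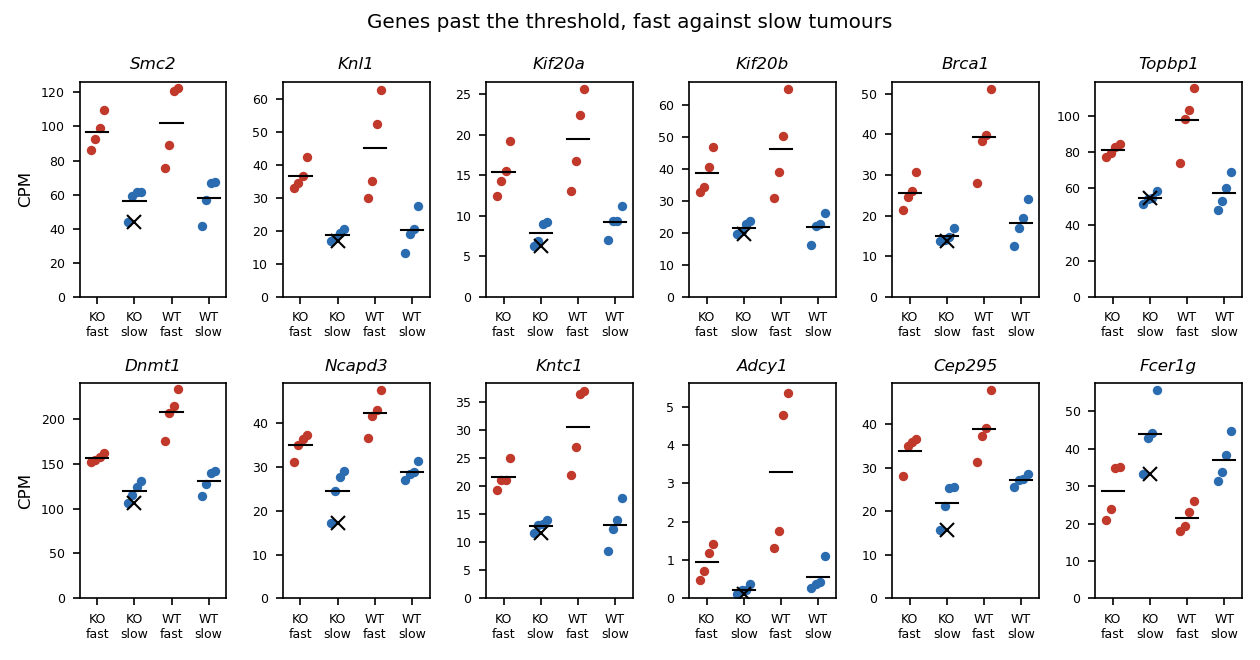
CPM of the 12 genes past the threshold in each fast (red) and slow (blue) tumour by label, 1 point per tumour, with a black line at the mean of 4 and a cross on KO 12. All genes but Fcer1g are apart between classes within each label.

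Fcer1g, the signalling chain shared by Fc receptors, fell by 0.73 ± 0.13 on the log2 scale (adjusted p = 0.0466, edgeR). Fast tumours held 17.9 to 35.1 CPM with a median of 23.5, and slow tumours 31.3 to 55.7 with a median of 40.7, with overlap. The lower genes next in order were Il11ra1, a receptor chain for interleukin 11, at -0.54 ± 0.10 (adjusted p = 0.0571), and the calcium-binding S100a1 and S100a13 at -0.56 ± 0.11 and -0.59 ± 0.12 (adjusted p = 0.0717 and 0.0803). Pdcd1, the T cell checkpoint receptor PD-1, was at -0.98 ± 0.21 and Cd52, a lymphocyte surface antigen, at -0.92 ± 0.20 (adjusted p = 0.0906 and 0.0919). Each of these genes passed without KO 12 (adjusted p from 0.0127 for Il11ra1 to 0.0171 for Cd52).

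The 6 genes separate within both labels and lower in fast tumours were S100a1, S100a13, Lenep, Tmem50a, Milr1 and Cyp4f18, named after their values were seen. Milr1 encodes an inhibitory receptor of mast cells, at 1.89 to 3.99 CPM in fast and 2.95 to 5.37 in slow tumours. Cyp4f18, which inactivates leukotriene B4, was the only one separate over all 16, at 4.05 to 8.17 against 8.38 to 15.7 CPM. Chromosome 3 had the lowest median change of the 20 chromosomes compared, at -0.09. Its median was -0.13 within KO, with chromosome 15 close at -0.126, and -0.04 within WT, where chromosome 16 was lowest at -0.109. On chromosome 3 lie Lenep, at 89309203 to 89309957, and, apart from it, S100a1 and S100a13, between 90418341 and 90431888 (GRCm39). S100a1 and S100a13 overlap on opposite strands there, and the counts do not use strand, so reads over the short stretch they share cannot be told apart. The 142 genes higher in fast tumours lay on 20 chromosomes, 1 to 13 on each, and 137 were protein-coding. Only 21 of them belonged to the 125 genes of the 3 cell cycle lists described next. Their median exonic length was 5529 bases, against 3590 for all tested genes; whether length has a part in the separation was not tested. For 141 of the 142 the mean of the middle class lay between those of the fast and slow classes, as it did for 43.3% of all tested genes. The 142 were chosen for classes that do not overlap, which sets the fast and slow means apart. That count therefore follows in part from the choice and is no separate support.

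The mitosis and G2 list had the highest median of the lists, apart from the marker pair Mki67 and Top2a, and the most calls. Of its 50 genes, 49 had a positive log2 change, against 46.1% of all tested genes, and the median was 0.75, against -0.03 over all genes. The called members were Smc2, Knl1, Kif20a and Kif20b. Without KO 12, 48 of the 50 were called higher, against 3.66% of all tested genes, and the median was 0.92. Without KO 11 and KO 12 together 45 were, against 2.23% of all. The list was chosen with these data known and moves with the gene that set the classes, so its count is a description. The exception, Pttg1, which encodes securin, was at -0.47 ± 0.19 and did not pass (adjusted p = 0.254, edgeR), with 12.8 to 18.03 CPM in fast and 12.5 to 28.5 in slow tumours.

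Within the labels the list differed in size, with a median of 0.32 under KO and 1.11 under WT. The gap narrowed without KO 12, where the KO median was 0.70 with 49 of 50 genes positive. By length, the 4 list genes of 1 to 2 kb had a median of -0.08 within KO and 1.02 within WT, and the 16 genes of 4 to 8 kb had 0.50 and 1.11. The 3 short genes that follow were chosen after their values were seen. Ube2c, which loads ubiquitin for the anaphase-promoting complex, has 931 exonic bases and changed by -0.33 within KO, by 1.12 within WT and by 0.61 within KO without KO 12. Cdc20, the activator of that complex, changed by -0.05, 1.00 and 0.78. Ccnb2, a mitotic cyclin, changed by -0.02, 1.01 and 0.64. KO 12 held the highest slow level of each, at 181, 140 and 81.3 CPM.

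For the core mitotic kinases Cdk1 and Plk1 and for cyclin B1, KO 12 was the slow tumour that overlapped the fast class. Cdk1 held 67.7 to 120 CPM in fast and 25.4 to 153 in slow tumours, and the next slow tumour after KO 12 held 63.9, below every fast one. Plk1 held 36.7 to 58.6 against 12.01 to 51.8 CPM, and its second-highest slow tumour held 29.6. Ccnb1, the cyclin partner of Cdk1, held 36.6 to 76.2 against 13.7 to 65.8 CPM, with the second-highest slow tumour at 32.9. Without KO 12 these rose by 0.88 ± 0.17, 1.02 ± 0.16 and 0.94 ± 0.19 (edgeR adjusted p = 0.0151, 0.0127 and 0.0161). These p-values follow from removing the slow tumour with the highest level of each gene, so they are a description. Over all 16 libraries none passed (adjusted p = 0.382, 0.207 and 0.276).

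In the DNA replication and S phase list all 50 genes had a positive change, with a median of 0.39 (KO 0.08, WT 0.76). Dnmt1 was the called member. Without KO 12, 37 were called higher, against 3.66% of all tested genes, with a median of 0.60. Mcm6, part of the replicative helicase, changed by 0.43 ± 0.16 over 16 libraries and by 0.57 ± 0.10 without KO 12 (edgeR adjusted p = 0.224 and 0.0135). Pcna, the sliding clamp, changed by 0.28 ± 0.15 and 0.41 ± 0.09 (adjusted p = 0.414 and 0.0218). The 25 genes of homologous recombination and Fanconi repair were all positive, with a median of 0.60 (KO 0.37, WT 0.83), and Brca1 was called. Without KO 12, 15 of the 25 were called higher, against the same 3.66% of all tested genes.

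**Figure D3:**
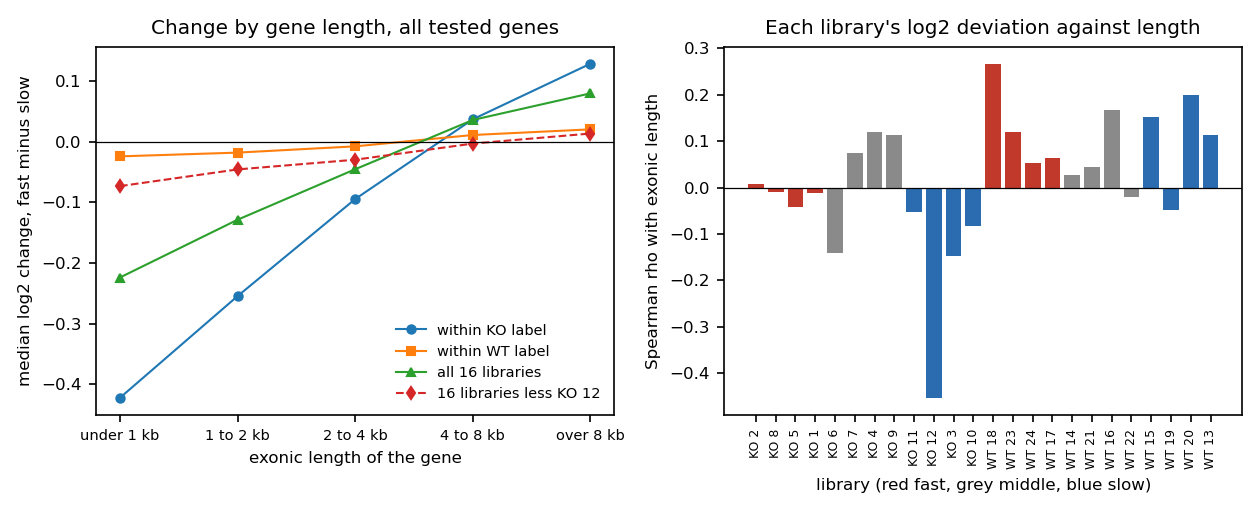
Left, median log2 change of all tested genes by exonic length, for all 16 libraries, for each label and without KO 12. Right, Spearman coefficient of each library's log2 deviation with length; the KO line climbs from -0.42 under 1 kb to 0.13 over 8 kb, the WT line from -0.02 to 0.02, and KO 12 stands at -0.45.

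Gene length moved with the comparison and gives values beside these lists. Across tested genes the log2 change had a Spearman coefficient of 0.287 with exonic length, 0.392 within KO, 0.0496 within WT and 0.0815 without KO 12, given over genes that are not independent. Median changes ran from -0.22 for 1134 genes under 1 kb to 0.08 for 2450 genes over 8 kb. Within the mitosis list the coefficient was 0.629. With the length trend removed from every library the list medians were 0.74 for mitosis, 0.41 for DNA replication and 0.58 for recombination. The part of length in single calls was not tested.

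The 25 G1 cyclins, CDK inhibitors and antiproliferative genes had 0 calls over 16 libraries, against 0.0725% of all genes, and a median of -0.03, the same as all genes. Without KO 12, 2 were called higher and 1 lower, against 3.66% and 2.41% of all tested genes. Without KO 11 and KO 12 together 1 was called higher and 0 lower, against 2.23% and 0.768% of all. Ccnd1, cyclin D1, held 241 to 499 CPM in fast and 87.9 to 464 in slow tumours, and its log2 change of 0.57 ± 0.21 did not pass (adjusted p = 0.219, edgeR). Cdkn1a, the inhibitor p21, was at -0.45 ± 0.35 (adjusted p = 0.586), with 43.9 to 161 against 34.6 to 205 CPM. Both overlapped widely.

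Of 28 genes of Myc and ribosome biogenesis 0 were called over 16 libraries, at a median of 0.20. Without KO 12, 19 were called higher, against 3.66% of all tested genes, at a median of 0.37. Only 9 were without KO 11 and KO 12 together, against 2.23% of all. Myc itself held 78.5 to 188 CPM in fast and 48.4 to 216 in slow tumours, where KO 12 had the 216 and the next slow tumour 97.6. It changed by 0.23 ± 0.35 with KO 12 and by 0.66 ± 0.18 without (edgeR adjusted p = 0.809 and 0.0416), and it did not pass without both KO 11 and KO 12 (adjusted p = 0.0657). The median of 26 cytosolic ribosomal protein genes was -0.10, and 0.14 without KO 12, so its sign turned. The 23 glycolysis and hypoxia genes had a median of 0.02, at -0.57 within KO, 0.75 within WT and 0.17 within KO without KO 12. Vegfa, the angiogenic factor, held 270 CPM in KO 12 and at most 54.5 in the other slow tumours, against 43.4 to 331 in fast ones.

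**Figure D4:**
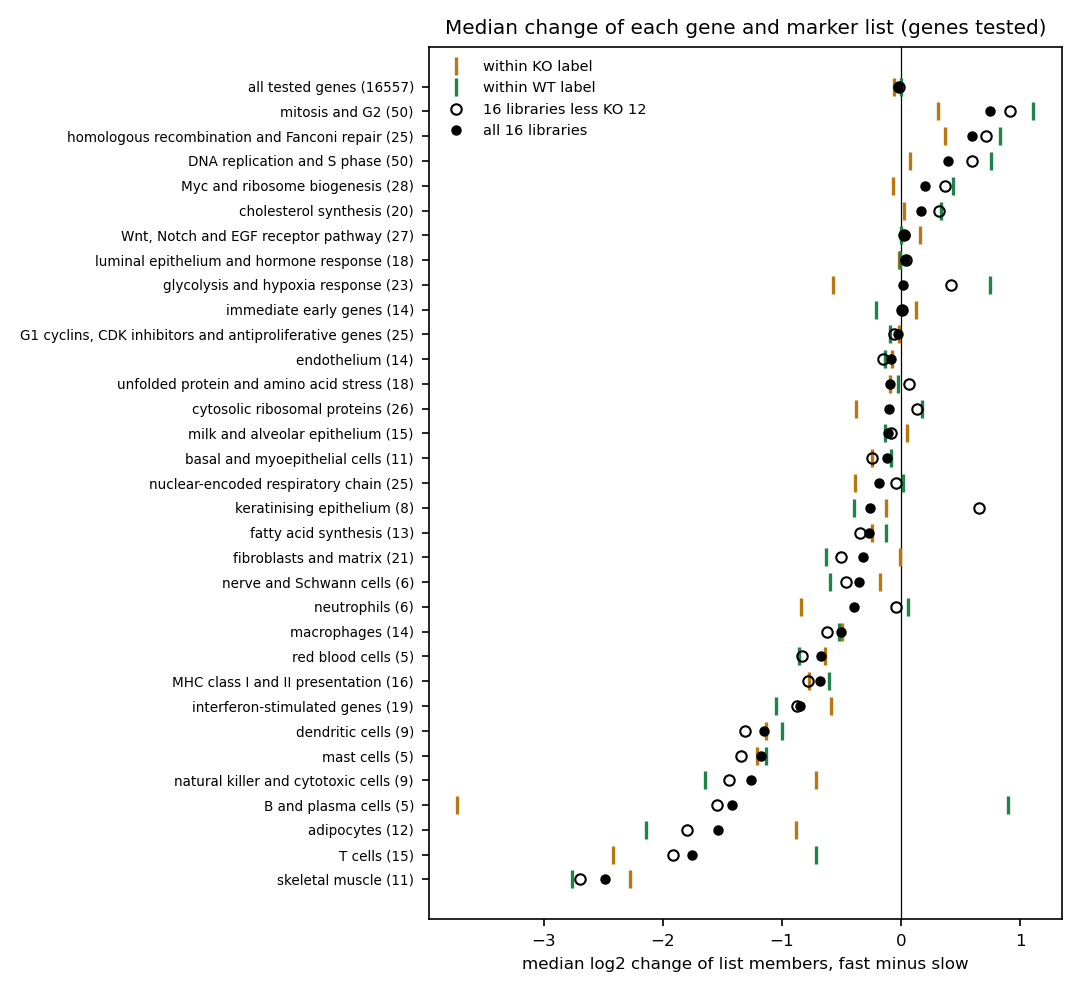
Median log2 change, fast minus slow, of each gene and marker list, with the number of genes tested in brackets, for all 16 libraries (filled), without KO 12 (open) and within each label (ticks). The 3 cell cycle lists stand highest and the muscle, T cell and adipocyte lists lowest, from 0.75 to -2.49 around -0.03 for all genes.

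Immune gene lists had negative medians. All 19 interferon-stimulated genes had negative changes within both labels, with a median of -0.85, where 31% of genes tested in both were negative in both. None was called over 16 libraries, and 18 had an unadjusted p under 0.05 against 8.28% of all genes. Without KO 12, 2 were called lower, against 2.41% of all tested genes. Without KO 11 and KO 12 together 0 were, against 0.768% of all. Irf7, the factor that amplifies interferon, held 120 to 285 CPM in fast (median 215) and 153 to 707 in slow tumours (median 314), with overlap. The whole list summed to a median of 1267 CPM in fast, 2111 in middle and 2000 in slow tumours, so the middle median was the highest. By class means of single genes, the middle class lay between the others for 15 of the 19, against 43.3% of all tested genes. The Irf7 log2 change was -0.93 ± 0.27 (edgeR adjusted p = 0.152, and 0.0602 without KO 12).

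All 16 genes of MHC class I and II presentation were negative within both labels, with a median of -0.68. None passed over 16 libraries. Without KO 12, 6 were called lower, against 2.41% of all tested genes. Without KO 11 and KO 12 together 1 was, against 0.768% of all. H2-K1, a class I heavy chain, held 523 to 1609 CPM in fast (median 840) and 483 to 2901 in slow tumours (median 2011). The range of the slow class held all of the fast one, because WT 15 was the slow tumour with 483. H2-D1, another class I heavy chain, had medians of 902 and 1726 CPM and a change of -0.81 ± 0.23 (edgeR adjusted p = 0.154).

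Markers of immune cells were measured to see which cells the RNA could hold. All defining markers had reads in some library. The sum of 15 T cell markers was 24.4 to 77.4 CPM in fast tumours (median 33.3) and 27.5 to 196 in slow ones (median 37.5). KO 11 held the 196 and KO 10 held 143, while the other slow tumours held at most 51.2, inside the fast range. The median log2 change of these markers was -1.75, with 14 of 15 negative and 0 called over 16 libraries. Without KO 12, 7 were called lower, against 2.41% of all tested genes. Without KO 11 and KO 12 together 1 was, against 0.768% of all. The median was -2.41 within KO and -0.72 within WT. Cd3e, a chain of the T cell receptor complex, held 0.146 to 1.23 CPM against 0.266 to 8.64, with 8.64 in KO 11 and 6.47 in KO 10. Its change of -1.55 ± 0.59 did not pass (adjusted p = 0.233, edgeR).

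The 9 natural killer and cytotoxic markers were all negative, with a median of -1.26 (KO -0.71, WT -1.64). Without KO 12, 7 were called lower, against 2.41% of all tested genes. Without KO 11 and KO 12 together 2 were, against 0.768% of all. Klrk1, the activating receptor NKG2D, held 0.583 to 2.44 CPM in fast and 0.745 to 7.50 in slow tumours. KO 12 was the lowest slow tumour, so leaving it out enlarged the fall. Klrk1 changed by -1.27 ± 0.42 with KO 12 and by -1.46 ± 0.38 without (edgeR adjusted p = 0.185 and 0.0367). It did not pass without both KO 11 and KO 12 (adjusted p = 0.0948). Gzmb, granzyme B, had medians of 2.88 and 4.398 CPM and did not pass either way (adjusted p = 0.290 and 0.0601).

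Among 14 macrophage markers 13 were negative, with a median of -0.50. Without KO 12, 5 were called lower, against 2.41% of all tested genes. Without KO 11 and KO 12 together 1 was, against 0.768% of all. Adgre1, the F4/80 antigen, held 18.996 to 47.2 CPM in fast (median 31.9) and 11.2 to 63.7 in slow tumours (median 52.6). KO 12 was again the lowest of the slow class, with the next at 35.8 CPM, so leaving it out enlarged the fall. Adgre1 changed by -0.53 ± 0.25 with it (adjusted p = 0.334, edgeR) and by -0.71 ± 0.14 without it (adjusted p = 0.0161), and it also passed without both KO 11 and KO 12 (adjusted p = 0.0366). Lyz2, lysozyme, did not pass either way, at -0.50 ± 0.26 and -0.63 ± 0.25 (adjusted p = 0.391 and 0.136). The macrophage markers summed to 900 to 1811 CPM in fast and 1068 to 2582 in slow tumours, so the classes overlapped.

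Mast cell markers were also negative, all 5 tested, with a median of -1.17, or -0.62 without KO 11. Mcpt4, a mast cell protease, held 0.635 to 7.15 CPM in fast and 1.97 to 31.6 in slow tumours, where KO 11 had the 31.6. It passed without KO 12, at -1.76 ± 0.43 (adjusted p = 0.0316, edgeR), and not without KO 11 and KO 12 together (adjusted p = 0.117). The 5 B and plasma cell markers tested gave a median of -1.41 that split by label, at -3.72 within KO and 0.90 within WT, and was -0.94 without KO 11. The summed level of all 10 listed B and plasma cell markers reached 317 CPM in KO 11 and 125 in KO 10. It was 3.76 to 19.5 in the other slow tumours and 1.203 to 43.6 in the fast ones.

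**Figure D5:**
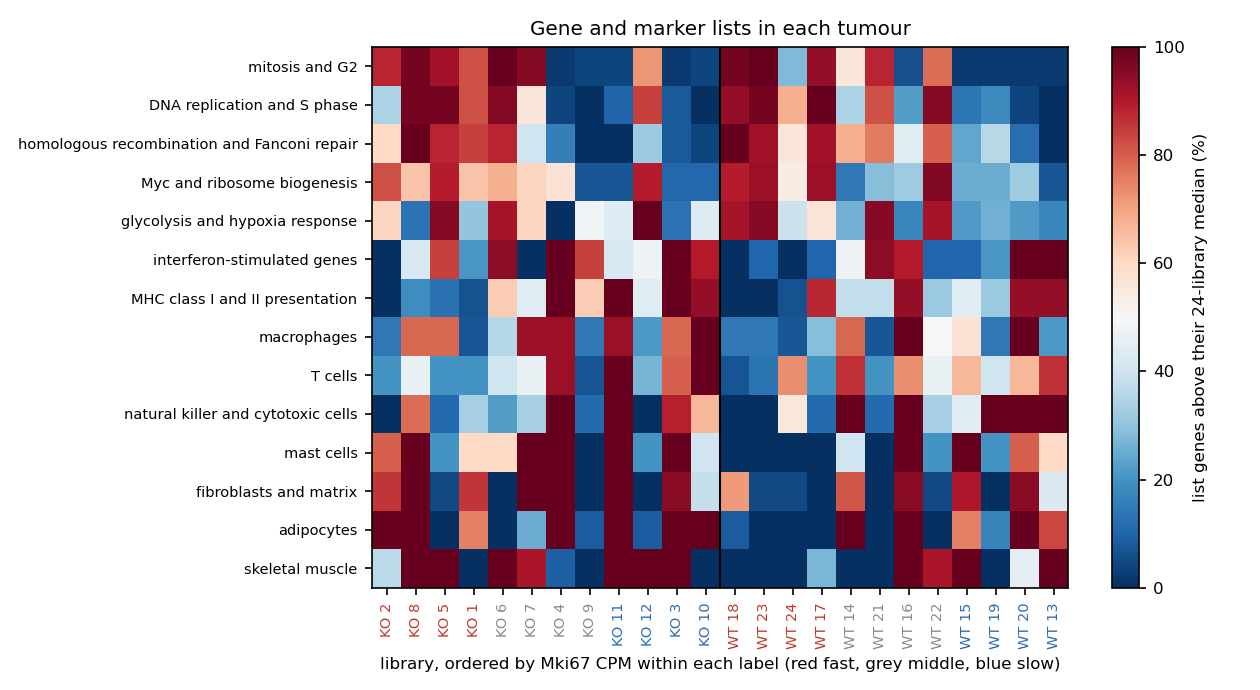
Share of each list's genes above their own 24-library median in each tumour, from 0% (blue) to 100% (red), with libraries ordered by Mki67 CPM within each label. The mitosis and DNA replication rows are red in most fast tumours and in KO 12, and 15 or 16 of the 16 MHC genes are above their medians in 5 of the 8 slow tumours.

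Markers of muscle and fat were highest in KO 11. All 11 skeletal muscle markers had negative changes, with a median of -2.49 and 0 called. Acta1, skeletal actin, held 0.555 to 306 CPM in fast and 0.262 to 1574 in slow tumours, which overlapped over the whole fast range. Without KO 11 the list median was -1.71. The 12 adipocyte markers were all negative, at a median of -1.54, or -0.94 without KO 11. Fabp4, the fat cell lipid carrier, held 1195 CPM in KO 11 and at most 207 in the other slow tumours, against 7.001 to 354 in fast ones. A separate list of 13 fatty acid synthesis genes had 9 negative, with a median of -0.27, or 0.01 without KO 11. Its most negative member was Scd1, which makes monounsaturated fatty acids, while Scd2 changed by 0.10 ± 0.14 (adjusted p = 0.807, edgeR). Scd1 held 950 to 2587 against 1346 to 6091 CPM and did not pass over 16 libraries (adjusted p = 0.185, edgeR). It passed without KO 12, at -0.86 ± 0.21 (adjusted p = 0.0288), and not without both KO 11 and KO 12 (adjusted p = 0.0663). The part of muscle, fat and immune cells in the other differences was not tested.

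Among markers of the tumour epithelium, the 18 luminal and hormone response genes had a median of 0.03, the 15 milk and alveolar genes -0.11 and the 11 basal and myoepithelial genes -0.12. Each had 0 calls over 16 libraries. Without KO 12, 1 milk and alveolar gene was called higher, against 3.66% of all tested genes, and 0 genes of the other lists. The basal median was -0.24 without KO 12, and its sign turned in 2 of 30 settings. Fibroblast and matrix genes had a median of -0.32 (KO -0.01, WT -0.63), with 20 of 21 negative and 0 calls over 16 libraries. That median was -0.50 without KO 12 and -0.21 without KO 11. Without KO 12, 1 of the 21 was called lower, against 2.41% of all tested genes. Endothelial genes had a median of -0.08, which was -0.15 without KO 12 and 0.002 without KO 11.

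Whether the classes differed more under one label than the other was tested as an interaction. edgeR called 0 of 17151 genes (0%), with 913 at an unadjusted p under 0.05 (5.32%), and DESeq2 called 5. Within the 4 against 4 libraries labelled KO, edgeR called 0 of 15893 genes (0%), with 1256 at an unadjusted p under 0.05 (7.9%), while DESeq2 called 142. Without KO 12, edgeR called 16. Within those labelled WT, edgeR called 0 of 16210 (0%), with 2059 at an unadjusted p under 0.05 (12.7%), and DESeq2 called 363. The smaller cell cycle medians under KO were therefore not shown gene by gene to differ from those under WT.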

How the data were processed

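RNA was measured in 24 mammary tumours, 12 labelled KO and 12 labelled WT, and libraries were grouped by their titles. Frozen tumours were homogenised for RNA and a stranded mRNA kit was used, per the labels' protocols. The deposited values are whole-number counts of reads per gene. The authors made them with featureCounts 2.0.0 on GRCm39, per the file headers, which record no strand option. Strand therefore does not tell overlapping genes apart, and how reads over shared stretches were counted was not examined. STAR and Subread are named too, per the submitters' processing notes, with versions not given in the sources used here. The authors' own comparison table was not used.

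A RefSeq table gave symbols for 44749 of 46318 gene IDs. No 2 libraries within a label agreed within sampling noise (132 pairs, lowest chi-square per degree of freedom 25.7). After filterByExpr and TMM scaling, counts were tested two-sided with edgeR 4.0.16 (quasi-likelihood, Benjamini-Hochberg, threshold 0.05) in R 4.3.3. The model was label plus class over the 16 libraries, and Mki67 was left out of the adjustment. Changes are log2 with SE, and CPM is a count over the file's total. The interaction, the fits within each label and KO minus WT over 24 libraries used the same steps. Library measures were compared by an exact permutation within labels (4900 arrangements). Promoters came from RefSeq (GRCm38.p6).

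The members and all gene and marker lists were chosen with earlier results of these data known. The rule for names took a panel, then up to 10 called genes per direction by size of change (mean of 1 CPM or more), then 5 further genes per direction by p-value. From each list it took up to 4 called members, or the 2 most abundant where none was called. Mcm6, Pcna, Cdk1, Plk1, Ccnb1 and Pttg1 were named after their values were seen. Some genes the rule took are not reported here. Other settings tried were DESeq2 1.42.0, voom with quality weights (limma 3.58.1), RLE and upper-quartile scaling, robust dispersion, other filters, covariates and class definitions, and each library left out in turn. The test was run on simulated counts of 16558 genes for fast against slow, 50 genes at each size of change. It recovered 24% of those changed 1.5-fold, 44% at 2-fold, 86% at 4-fold and 94% at 8-fold, made 4 false calls, and made 0 calls with no change simulated. In these libraries 3 reads equal 0.0789 to 0.16 CPM.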

Additional observations from a re-analysis of the deposited data

Results flagged for a closer look

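Within the 8 fast or the 8 slow libraries, single libraries lay far from the rest in 30 of 176 groups of values examined. Chance alone flags about 1 in 20 such groups, and the values share libraries and genes. List scores are the mean log2 level of a list's genes, each centred on its mean over the 24 libraries.

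Of these values, 15 belong to KO 12 and 7 to KO 11 among the slow libraries, and 6 to WT 23 among the fast. KO 12 lay above the other 7 in CPM for Ube2c (181, the next 49.5), Birc5 (111, the next 37.9), Cdc20 (140, the next 54.8), Ccnb2 (81.3, the next 37.6), Ccnb1 (65.8, the next 32.9), Cdk1 (153, the next 63.9) and Plk1 (51.8, the next 29.6). The same held for Pcna (155, the next 106), Vegfa (270, the next 54.5) and Myc (216, the next 97.6). Supt16 was lowest in KO 12, at 46.4 CPM, with the next at 71.5. KO 12 was highest in its score of Myc and ribosome biogenesis (0.55), of cytosolic ribosomal proteins (1.04) and of glycolysis and hypoxia (1.34). The 100 most read genes took 21.6% of its reads.

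KO 11 was highest of the slow libraries in Acta1 (1574 CPM), Fabp4 (1195 CPM), Cd52 (68.3 CPM) and Mcpt4 (31.6 CPM), in its mitochondrial reads (0.194%) and in its fatty acid synthesis score (1.01) and red blood cell score (2.94). WT 19 was highest in Adcy1 (1.10 CPM, the next 0.435).

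Among the fast libraries WT 23 was highest in Vegfa (331 CPM), Myc (188 CPM), Cdkn1a (161 CPM) and Birc5 (87.5 CPM), and in its scores of G1 genes (0.29) and of cytosolic ribosomal proteins (0.26). KO 8 was highest in Acta1 (306 CPM, the next 64.2).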

How the results depend on the processing

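Genes called between fast and slow numbered 12. DESeq2 called 650, voom with quality weights 992, Mki67 used as a number 599, all 24 libraries 124, the fibroblast score as covariate 32, no filter 6, no label block 5, the library total as covariate 0, an adjusted p under 0.01 0 and under 0.1 62. Leaving out each library in turn gave 0 to 1020 calls, the latter without KO 12. RLE and upper-quartile scaling, robust dispersion and a stricter filter gave 8 to 12. Chosen after seeing the data were leaving out KO 11 and KO 12 together (508), removing the length trend (0) and removing it without KO 12 (1065). The cause of these moves was not tested.

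Within KO, 0 calls became 142 with DESeq2, and leaving out single libraries gave 0 to 16. Within WT, DESeq2 called 363, and for the interaction 5. KO minus WT called 50, 418 with DESeq2, and 9 to 72 without single libraries. The Mki67 difference between labels (KO minus WT, log2) ran from -0.155 without WT 13 to 0.024 without WT 18, the highest WT library, where its sign turned. The medians of the 3 cell cycle, interferon and MHC lists kept their sign in 30 settings each, while medians turned sign in the number of settings given for ribosomal proteins (6), glycolysis and hypoxia (17), luminal (11), immediate early (17), unfolded protein (5), Wnt (5), keratinising (5), basal (2, from -1.16 to 0.03), endothelial (2), fatty acid (2), respiratory chain (2) and fibroblast genes (1).

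No paired analysis was possible because the KO libraries are numbered 1 to 12 and the WT libraries 13 to 24, so the groups share no replicate number. With 4 libraries per class and label, and recovery of simulated 1.5-fold changes at 24%, a gene that missed the threshold is not shown to be equal between classes.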
